A study of Mus musculus with 6 samples.

Results

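The S100 genes analysed here are *S100a4*, *S100a6*, *S100a10*, *S100a11* and *S100a13*, which were chosen by name as 5 of the 11386 genes in the deposited tables. They were measured in mouse dental mesenchymal cells (mDMCs) of ICR embryos at embryonic day 14.5, dissociated from molar tooth germs. The cells were either fresh (P0), or grown as a monolayer in medium with fetal bovine serum to the first passage (P1) or the second passage (P2), and neither the labels nor the methods name a mutation or a transgene in any group. Per the study, part of the P0 cells was sequenced and the rest was subcultured to P1 and P2, so the passages are serial samples. There were 6 libraries, 2 of each passage, and the tests treat them as independent. No source says if the 2 came from separate cultures, so the p-values measure only the spread between these libraries, which may be technical. As these are bulk RNA samples, fewer cells of a type cannot be told apart from less RNA per cell.

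S100 proteins are small calcium-binding proteins of vertebrates, each built around a pair of EF-hand loops. Most work as dimers without enzyme activity: calcium opens a surface that grips a partner, such as an annexin or a myosin heavy chain. *S100a4*, also called fibroblast-specific protein, is widely used as a marker of fibroblasts and is also expressed by macrophages. S100a10 is the exception in that its loops no longer bind calcium, and it is known as the light chain of a complex with annexin A2 at the plasma membrane.

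*S100a4* and *S100a6* showed by far the largest changes of the 5 genes between fresh and cultured mDMCs. Their mean levels were 32.3 and 13.96 times as high in P1 as in P0, and 27.3 and 12.9 times as high in P2 as in P0. *S100a11* and *S100a10* rose too, by 3.56 and 2.45 times in P1, while *S100a13* reached 1.70 times its P0 level and did not pass the test. No member changed by the test between P1 and P2. *S100a16*, the only other S100 gene in the tables, fell in both cultured passages.

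All 5 members lie on chromosome 3 (mm10) and are transcribed from the plus strand, in a pair of groups. *S100a13* (ENSMUSG00000042312, 90514435 to 90524581), *S100a4* (ENSMUSG00000001020, 90603771 to 90606045) and *S100a6* (ENSMUSG00000001025, 90612894 to 90614414) form the first group. *S100a11* (ENSMUSG00000027907, 93520488 to 93526287) and *S100a10* (ENSMUSG00000041959, 93555080 to 93564643) form the second. Promoter windows from RefSeq (GRCm38.p6, the build of mm10) were found for 4 of the 5 members, the other being *S100a10*. The bases before the first annotated exon are shown for the 3 members with the largest changes, since these rose together. Capitals mark matches, on both strands, to the motifs searched. These were TATAAA, the core of the TATA box, then GGGCGG, the GC box of Sp1, then GGAATG, a Tead site, then TGANTCA, an AP-1 site, and the CArG box of serum response factor. None of these overlaps another in the sequences shown. The windows are chr3:90603520-90603769 for *S100a4*, chr3:90612644-90612881 for *S100a6* and chr3:93520246-93520487 for *S100a11*, all on the plus strand and written 5′ to 3′.
S100a4: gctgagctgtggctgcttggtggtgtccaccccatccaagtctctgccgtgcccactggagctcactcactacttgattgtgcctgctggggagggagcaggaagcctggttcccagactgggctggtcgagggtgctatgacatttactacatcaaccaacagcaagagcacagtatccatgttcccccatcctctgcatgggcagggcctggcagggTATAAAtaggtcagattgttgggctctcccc
S100a6: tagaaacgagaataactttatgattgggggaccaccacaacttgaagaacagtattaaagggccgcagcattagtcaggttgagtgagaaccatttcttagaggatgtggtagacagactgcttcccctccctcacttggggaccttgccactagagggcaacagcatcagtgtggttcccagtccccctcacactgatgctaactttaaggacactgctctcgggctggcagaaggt
S100a11: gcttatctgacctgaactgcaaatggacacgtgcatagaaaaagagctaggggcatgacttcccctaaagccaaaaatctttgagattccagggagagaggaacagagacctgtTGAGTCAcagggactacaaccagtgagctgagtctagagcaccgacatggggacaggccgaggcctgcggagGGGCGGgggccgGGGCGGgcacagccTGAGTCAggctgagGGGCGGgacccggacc
The 3 sequences have little in common in these letters. *S100a4* holds 1 TATAAA, ending 25 bases before the start site, a hexamer present in 12.4% of 32851 RefSeq windows of the same length (250 bases before the start). *S100a11* holds no TATAAA but 3 copies of GGGCGG (present in 32.7% of windows) and 2 of TGANTCA (6.75%), of which 1 ends 129 and the other 31 bases before the start site. None of the 5 motifs was found in the window of *S100a6*, and none in that of *S100a13*, whose bases overlap an exon of *S100a1* on the other strand and are not shown. GGAATG and the CArG box, present in 12.6% and 1.47% of windows, were found in none of the 4. A match describes letters and does not show that a factor binds.

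Expression is given in scaled units, which bring the authors' normalized values to a total of 1000000 in each passage (18.7 deposited units make 1 scaled unit). The deposited means were split into the values of both libraries, which follow from each mean and error, although the tables do not say which value is replicate 1. Every gene in the tables exceeded a deposited value of 100 in 2 or more libraries. All 5 members were above 100 in all 6 libraries, as were 84.2% of all genes, so none of them entered the tables through 1 passage alone. The depth behind the values is unknown. Differences were tested with limma on log2(scaled value + 1) over all genes and libraries, a scale on which genes with low values show less than their true change. A gene was called when its adjusted p (Benjamini-Hochberg) was under 0.05 and its level differed 2-fold or more.

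*S100a4*, whose product binds the heavy chain of non-muscle myosin IIA, had 17.0 and 19.4 scaled units in the libraries of P0, 565.7 and 611 in P1, and 441 and 553 in P2. Every cultured library was thus far above both fresh ones, and the nearest values of P1 and P0 differed 29.1-fold and those of P2 and P0 22.7-fold. The log2 fold change was 4.94 in P1 against P0 (standard error 0.14, adjusted p = 1.23e-05) and 4.69 in P2 against P0 (standard error 0.14, adjusted p = 1.17e-05). Only 27 of the 11386 genes had a higher log2 fold change in P1 against P0, and 49 in P2 against P0.

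*S100a6*, the calcyclin gene, lies next to *S100a4* and showed a change of the same direction and a smaller size. It had 36.2 and 39.5 scaled units in the P0 libraries, 504 and 552 in P1, and 469 and 504.5 in P2. The P0 libraries again lay well below the rest, while P2 and P1 met, the higher P2 library and the lower P1 library having the same deposited value. The log2 fold change was 3.77 in P1 against P0 (standard error 0.10, adjusted p = 1.03e-05) and 3.65 in P2 against P0 (standard error 0.10, adjusted p = 9.38e-06), with 81 and 116 genes higher. *S100a6* varied little within a passage, its higher library value being at most 1.09 times the lower.

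*S100a11*, the calgizzarin gene, whose product binds annexin A1, had 8.87 and 9.40 scaled units in P0, 29.5 and 35.4 in P1, and 25.2 and 27.8 in P2. No cultured library overlapped a fresh one. The log2 fold change was 1.72 in P1 against P0 (standard error 0.13, adjusted p = 2.18e-04) and 1.44 in P2 against P0 (standard error 0.13, adjusted p = 2.84e-04). RefSeq lists a pseudogene of *S100a11*, and reads that the mapping could have shared with it were not examined.

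*S100a10*, the gene of the annexin A2 light chain, was the member with the most expression in fresh cells also when transcript length was taken into account. It had 149 and 169 scaled units in P0, 353 and 427 in P1, and 317 and 394 in P2. The passages P1 and P2 overlapped each other and neither overlapped P0. The log2 fold change was 1.29 in P1 against P0 (standard error 0.15, adjusted p = 8.92e-04) and 1.15 in P2 against P0 (standard error 0.15, adjusted p = 0.00104). The lower end of the 95% interval was 0.92 in P1 and 0.79 in P2, below the 2-fold mark.

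*S100a13*, whose product takes part in the release of fibroblast growth factor 1 from cells, had the lowest values. It had 5.56 and 5.82 scaled units in P0, 8.01 and 11.3 in P1, and 8.87 and 13.1 in P2. Both cultured passages lay above P0, but their own libraries differed by 1.41 and 1.48 times, against 1.05 times in P0. In P1 against P0 the log2 fold change of 0.66 (standard error 0.23, 95% interval 0.08 to 1.23) had an adjusted p of 0.0523. In P2 against P0 it was 0.82 (standard error 0.23, 95% interval 0.25 to 1.39, adjusted p = 0.0228), which is under 2-fold.

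**Figure D1:**
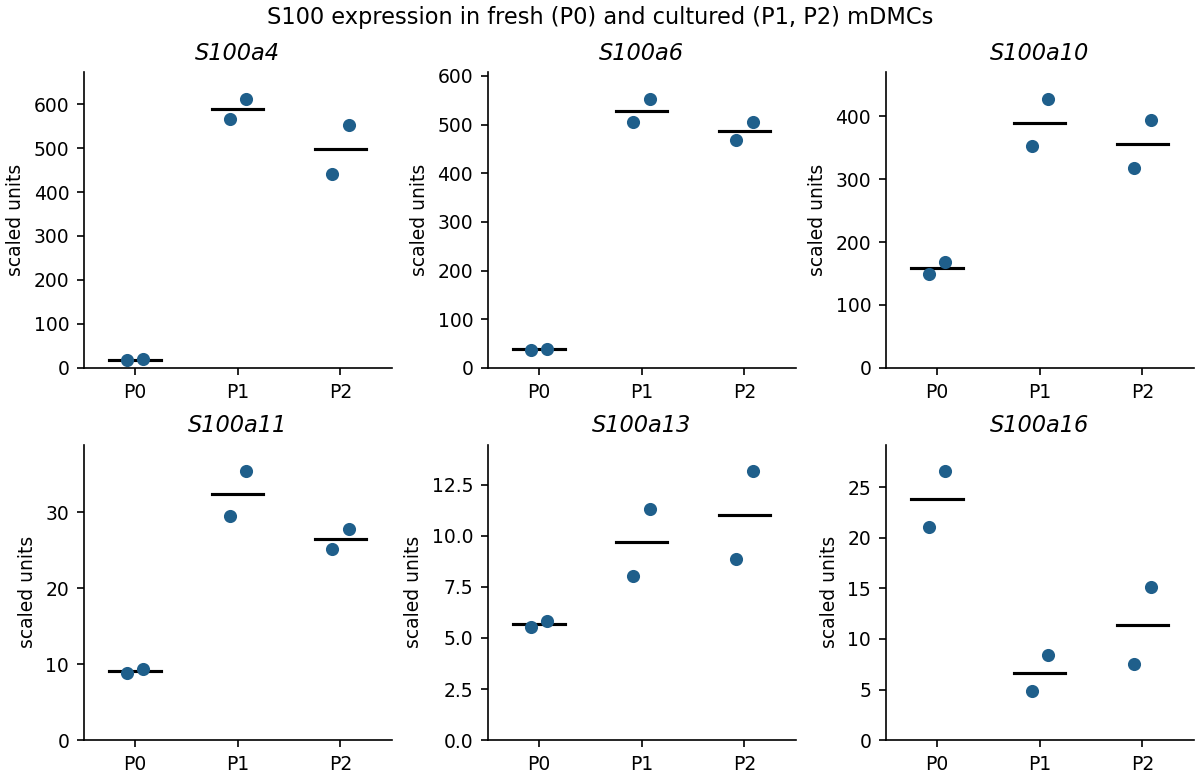
Scaled units (vertical axes, linear and each with its own range from 0) of the 5 members and of *S100a16* in P0, P1 and P2. Points are the 2 libraries of a passage and bars are their means: *S100a4* lies between 441 and 611 in the cultured libraries and at 17.0 and 19.4 in the fresh ones, while *S100a16* is highest in P0.

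In counts, 4 of the 5 members were called higher in P1 than in P0 and the same 4 in P2 than in P0, and none lower. The background over all genes was 12.2% higher and 12% lower in P1 against P0, and 14% higher and 14.4% lower in P2 against P0. The median log2 fold change of the 5 was 1.72 in P1 and 1.44 in P2, beside 0.02 and 0.01 over all genes. The libraries of all 5 did not overlap between P1 and P0, nor between P2 and P0. The share of all genes without overlap was not counted, so this is not read as a trait of the members. For comparison, all 5 members had an unadjusted limma p under 0.05 in both comparisons. So did 7246 of the 11386 genes in P1 against P0 and 7710 in P2 against P0. The sizes were spread over a wide range. In P1 against P0 the 95% interval of *S100a4* (4.61 to 5.27) lay above that of *S100a6* (3.53 to 4.003), and this lay above that of *S100a11* (1.40 to 2.04). The interval of *S100a10* (0.92 to 1.65) overlapped those of *S100a11* and *S100a13*, and the differences between members were not themselves tested.

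**Figure D2:**
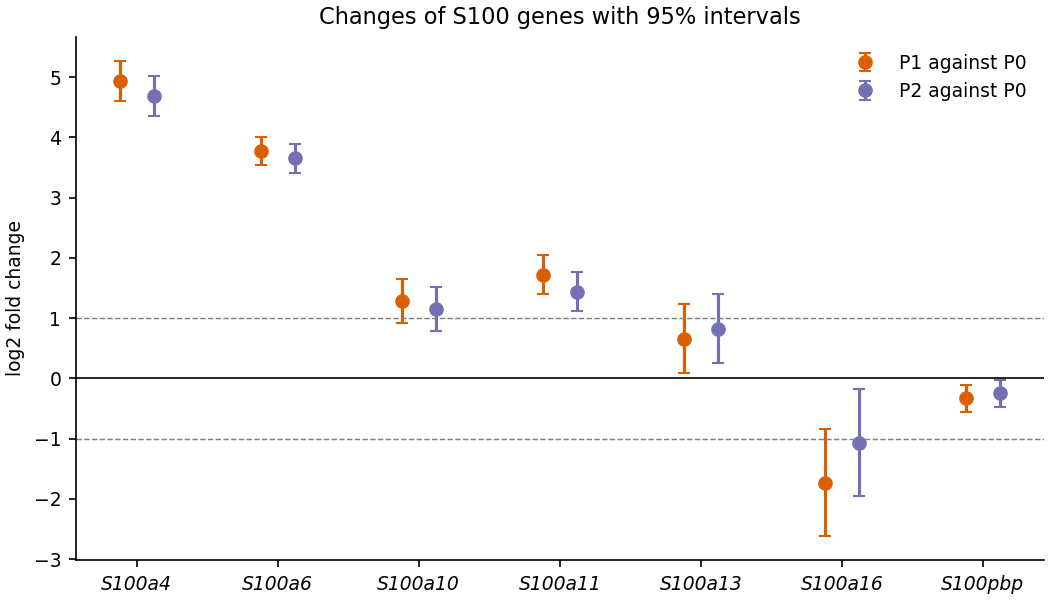
Log2 fold changes (vertical axis) of the 5 members, *S100a16* and *S100pbp* in P1 against P0 and in P2 against P0. Points are limma estimates, vertical bars are 95% intervals and dashed lines mark 2-fold: *S100a4* is at 4.94 and 4.69, *S100a13* at 0.66 and 0.82, and *S100a16* at -1.73 and -1.07.

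The balance among the S100 transcripts differed between fresh and cultured cells. Levels of different genes were compared per kilobase of the transcript named in the tables, between 446 bases for *S100a4* and 731 bases for *S100a6*. Per kilobase, the P0 means were 232 scaled units for *S100a10*, 51.8 for *S100a6*, 40.8 for *S100a4*, 17.9 for *S100a11* and 7.96 for *S100a13*. In P1 they were 1320 for *S100a4*, 723 for *S100a6*, 569 for *S100a10*, 63.6 for *S100a11* and 13.5 for *S100a13*. P2 had the same order as P1, with 1114 for *S100a4*, 666 for *S100a6* and 519 for *S100a10*. *S100a10* thus made up 66.2% of the summed level per kilobase of the 5 genes in P0, 21.2% in P1 and 21.9% in P2, whereas *S100a4* made up 11.7%, 49.1% and 47.1%. The sum over the 5 was 350 scaled units per kilobase in P0, 2689 in P1 and 2366 in P2. The transcript that the tables give for *S100a4* belongs to an overlapping gene model, *Gm42674*, in the later GENCODE annotation (release M21). Reads of the 2 models thus cannot be told apart, and the shares of *S100a4* rest on the 446 bases of that transcript. Without division by length, the means of *S100a4* and *S100a6* were closer, at 588.5 and 528 scaled units in P1 and 497 and 487 in P2.

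The second passage resembled the first in all 5 genes. None of the 5 was called in P2 against P1 by limma, none had an unadjusted p under 0.05, and 0.299% of all genes were called in either direction. The log2 fold change was -0.25 for *S100a4* (95% interval -0.58 to 0.08), -0.12 for *S100a6* (-0.35 to 0.12), -0.14 for *S100a10* (-0.50 to 0.23), -0.28 for *S100a11* (-0.60 to 0.04) and 0.16 for *S100a13* (-0.41 to 0.74). The adjusted p values lay between 0.419 and 0.821. The intervals leave room for changes below 2-fold in either direction. In *S100a4* both P2 libraries lay below both P1 libraries (441 and 553 against 565.7 and 611 scaled units), and likewise in *S100a11* (25.2 and 27.8 against 29.5 and 35.4), while the passages overlapped in the other 3. The share of all genes without overlap between P2 and P1 was not counted, so this is not read as a further fall in P2.

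Of 22 further names of the S100 family, its binding protein and the fused-type S100 genes, 2 were in the tables. *S100a16*, a widely expressed S100 gene, had 4.81 and 8.44 scaled units in P1 and 7.53 and 15.2 in P2, against 21.05 and 26.5 in P0. Its log2 fold change was -1.73 in P1 against P0 (standard error 0.36, adjusted p = 0.00809) and -1.07 in P2 against P0 (standard error 0.36, adjusted p = 0.0416), with no overlap with P0 in either. Its duplicates were far apart, the higher being 1.76 times the lower in P1 and 2.01 times in P2. With a pseudocount of 5 its log2 fold change in P2 was -0.85, and the call was lost. *S100pbp*, which encodes a binding protein of S100P, changed by less than 2-fold, with log2 fold changes of -0.33 in P1 (adjusted p = 0.0217) and -0.25 in P2 (adjusted p = 0.0517). *S100b*, *S100a1*, *S100a8* and *S100a9* are among the names not analysed here.

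Within 250 kb of a member there were 8 other genes in the tables, all of them near the first group. Of these, 1 was called higher and 3 lower in P1 against P0, and likewise in P2 against P0, beside 12.2% higher and 12% lower over all genes in P1 and 14% and 14.4% in P2. *Chtop*, an mRNA export factor gene that lies 4.99 kb from *S100a13*, fell in both, with log2 fold changes of -1.14 (P1, adjusted p = 6.37e-04) and -1.21 (P2, adjusted p = 3.85e-04). *Ilf2*, which encodes a double-stranded RNA-binding factor, fell likewise, with -1.29 (P1, adjusted p = 2.59e-04) and -1.73 (P2, adjusted p = 7.21e-05). *Snapin*, a gene of vesicle transport, rose, with 1.15 (P1, adjusted p = 4.05e-04) and 1.24 (P2, adjusted p = 2.28e-04). The remaining call was *S100a16*, which starts between *S100a13* and *S100a4* and fell as given above. *Ints3*, *Slc27a3*, *Gatad2b* and *Dennd4b* had log2 fold changes between -0.61 and -0.04 in P1 and between -0.80 and -0.23 in P2. The median of the 8 was -0.47 in P1 and -0.76 in P2, beside 0.02 and 0.01 over all genes.

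**Figure D3:**
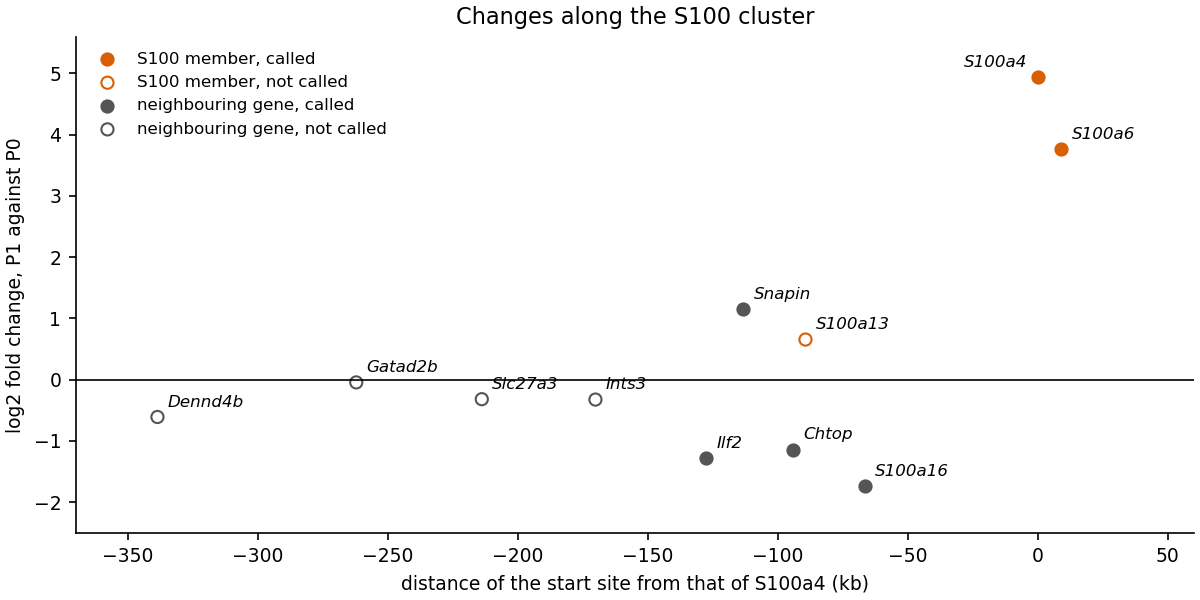
Log2 fold change in P1 against P0 (vertical axis) of the 3 members of the first S100 group and their 8 neighbours, by the distance of their start sites from that of *S100a4* in kb (horizontal axis). Filled points were called: *S100a4* and *S100a6* stand at 4.94 and 3.77, and the neighbours lie between -1.73 and 1.15.

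Partner genes of the S100 proteins changed unequally. Of 28 listed partners and receptors 23 were measured, of which 8 were called higher and 2 lower in P1 against P0, and 8 higher and 1 lower in P2 against P0. As shares of the 23, these are 34.8% and 8.70% in P1, beside 12.2% and 12% over all genes, and 34.8% and 4.35% in P2, beside 14% and 14.4%. The median log2 fold change was 0.28 in P1 and 0.19 in P2, beside 0.02 and 0.01 over all genes. Of the annexins, *Anxa1*, the partner of S100a11, had 1508 and 1683 scaled units in P1 and 1684 in both libraries of P2, against 104 and 117 in P0. It rose, with log2 fold changes of 3.84 (P1, standard error 0.10, adjusted p = 1.09e-05) and 3.92 (P2, adjusted p = 9.26e-06). *Anxa2*, which joins S100a10, had 940 and 1052 scaled units in P1 and 795 and 894 in P2, against 481 in both libraries of P0. Its log2 fold change of 1.05 in P1 was called (adjusted p = 4.50e-04), and that of 0.81 in P2 was under 2-fold although the adjusted p was 8.58e-04. *Anxa11*, a partner of S100a6, rose at a low level, with 5.23 and 7.26 scaled units in P1 and 9.35 and 9.62 in P2, against 1.18 and 1.60 in P0 (log2 fold changes 1.59 and 2.14). With a pseudocount of 5 its call in P1 was lost (0.81). *Anxa6* was at 0.25 and 0.19 and was not called.

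Among the other partners, *Myh9*, the heavy chain gene of non-muscle myosin IIA, had 1681 and 1940 scaled units in P1 and 1940 and 2339 in P2, against 343 and 348 in P0. It rose, with log2 fold changes of 2.38 (P1, standard error 0.12, adjusted p = 6.96e-05) and 2.62 (P2, adjusted p = 3.66e-05), whereas *Myh10*, another non-muscle myosin gene, was at 0.19 and 0.08 and was not called. *Ppfibp1*, which encodes liprin beta, a partner of S100a4, rose by 1.69 in P1 and by 2.03 in P2. *Ahnak*, the gene of a large scaffold protein bound by the S100a10 and annexin A2 complex, rose by 1.02 and 1.15 (0.99 in P1 and not called with median-of-ratios scaling), and *Plat*, the tissue plasminogen activator gene, rose by 1.40 and 1.33. The S100a6 partners *Cacybp* and *Sugt1* were at 0.05 and 0.28 in P1 and at -0.29 and 0.17 in P2 and were not called. The cochaperone gene *Fkbp4* fell (-1.14 in P1, -1.57 in P2), and the other cochaperone genes, *Stip1*, *Ppid* and *Ppp5c*, had log2 fold changes between -0.74 and -0.17 in P1 and between -0.68 and -0.31 in P2 and were not called. *Hltf*, *Dlc1*, *Ncl*, *Syt1* and *Trp53*, which encode proteins bound by S100a10, S100a11, S100a13 or S100a4, lay between -0.57 and 0.49 in P1 and between -0.68 and 0.55 in P2, with no call. The highest values move in steps of the authors' normalization, so that *Anxa2* and *Ahnak* each had 1 value in both P0 libraries. Shared values also occurred in *Anxa1* (deposited value 31514 in the higher P1 library and both P2 libraries). *Myh9* had 36313 in the higher P1 library and the lower P2 library. The fold changes and standard errors of such genes are less exact. The members lay below these steps, each library value within 1% of the next value in the tables.

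Of the receptors, *Tlr4*, a pattern recognition receptor that binds S100a8 and S100a9, rose, with log2 fold changes of 2.90 (P1, standard error 0.20, adjusted p = 1.56e-04) and 3.22 (P2, adjusted p = 8.04e-05). It had 26.9 and 38.1 scaled units in P1 and 37.5 and 43.1 in P2, against 2.99 and 3.90 in P0. *Bsg*, the gene of basigin, had a log2 fold change of 0.77 in P1, under 2-fold, and was called at 1.01 in P2 (adjusted p = 3.60e-04), a call lost with median-of-ratios scaling (0.995) and with a pseudocount of 5 (0.995). *Cd36*, a scavenger receptor gene, was called lower in P1 (log2 fold change -1.12, adjusted p = 0.00175), and at -0.94 in P2 it stayed under 2-fold. Its call depended on the pseudocount, being lost in P1 with 5 (-0.78) and gained in P2 with 0.1 (-1.04). *Ager*, the gene of the receptor for advanced glycation end products, is not analysed here.

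**Figure D4:**
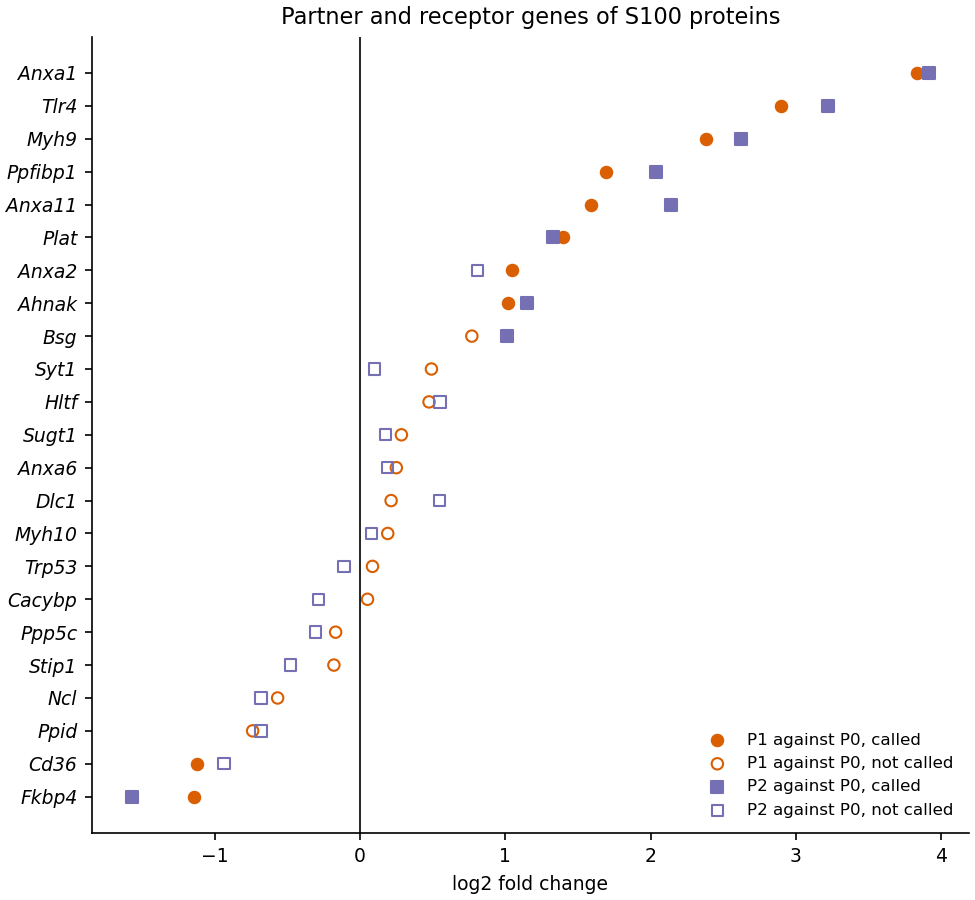
Log2 fold changes (horizontal axis) of the 23 measured partner and receptor genes in P1 against P0 (circles) and P2 against P0 (squares), with filled symbols for called genes. *Anxa1* is at 3.84 and 3.92 and *Fkbp4* at -1.14 and -1.57.

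Of 40 names of other EF-hand proteins 35 were measured, with 7 called higher and 2 lower in P1 against P0, beside 12.2% higher and 12% lower over all genes. In P2 against P0, 8 were called higher and 2 lower, beside 14% and 14.4% over all genes. Their median log2 fold change was 0.28 in P1 and 0.22 in P2, beside 0.02 and 0.01 over all genes. The highest called values in P1 were those of *Sparc*, a matricellular protein gene (2.78), *Capn1*, a calpain gene (1.81), and *Pls3*, an actin-bundling plastin gene (1.77), and in P2 those of *Sparc* (3.59), *Capn1* (1.98) and *Nucb2* (1.76). *Sparc* was at the highest value of the tables in 1 library of P1 and both of P2, so the size of its rise is not exact. The called falls were those of *Lcp1*, the plastin gene of white blood cells (-3.70 in P1 and -2.91 in P2), and *Necab2* (-2.64 and -2.77).

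The genes closest to each member in their pair of fold changes over P0 were sought among 10336 others with at least 10 scaled units in some passage, by the Euclidean distance between the log2 fold changes over the means of 3 passages. For *S100a4* they were *Ccng1* (distance 0.07), *Fam212b* (0.08) and *Sdpr* (0.27), and for *S100a6* *Cd109* (0.08), *Trim7* (0.09) and *Adm* (0.12). For *S100a11* they were *Srxn1* (0.06), *Ggta1* (0.08) and *Nanos1* (0.09). *Fancf* and *Rbm43* were among the closest to *S100a10*, and *Manea*, *Enthd2* and *Prkcsh* were closest to *S100a13*, all within 0.03.

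The labelled tissue was checked by markers. All 12 listed dental mesenchyme genes were measured and none was at 0 in a passage, with 2 called higher and 4 lower in P1 and in P2. The macrophage markers, which bear on *S100a4*, had 5 of 16 measured, of which 3 were called lower in P1 and in P2, and *Lyz2* higher in P2. Their summed level was 14.05 to 17.9 scaled units in P1 and 37.3 to 64.6 in P2, against 57.1 to 67.2 in P0 (sums of the lower and of the higher library values), and none was at 0 in any passage. *Lyz2* had 24.5 and 49.3 scaled units in P2, against 7.26 and 8.07 in P0. Of 8 measured dental epithelium markers (12 listed) 7 fell and *Perp* rose in both passages, with a sum of 59.1 to 109 in P1 and 85.5 to 115 in P2, against 88.0 to 231 in P0. *Perp* made up most of the sums in culture, and the other 7 summed to 2.62 to 5.77 in P1 and 4.17 to 6.41 in P2, against 85.95 to 227 in P0. *Krt15* was listed at 0 in P1, and *Krt14*, *Krt15* and *Krt17* in P2. Of 13 measured endothelial markers (14 listed) 11 fell in each, with a sum of 64.1 to 106 in P1 and 68.3 to 129.99 in P2, against 526 to 579 in P0, and *Tie1*, *Cldn5* and *Robo4* were listed at 0 in both cultured passages and *Cdh5* in P2. All 9 measured red cell markers (12 listed) fell, with a sum of 1.87 to 2.78 in P1 and 1.92 to 7.59 in P2, against 10004 to 14249 in P0. Of 4 measured Schwann cell markers (9 listed) 2 fell in P1 and 3 in P2 while *Mbp* rose, with a sum of 17.7 to 23.7 in P1 and 17.1 to 23.2 in P2, against 108 to 116 in P0. The part of these cells in the S100 levels of any passage was not tested.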

How the data were processed

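Expression was measured by RNA-seq (Illumina) in 6 libraries of mDMCs, 2 each of P0, P1 and P2. Per the study's methods, bowtie mapped the reads to transcripts of mm10 from Ensembl, and they were quantified with RSEM (version 1.1.21 in the submitters' notes) and normalized for GC content with EDASeq, and the authors tested with DESeq2. The deposited score is their normalized value, given as a mean and an error per gene and passage. The passages total 1.87e+07 each and share the highest value 133818, as after quantile normalization, so these are not read counts, and the depth is unknown. The deposited error equals the difference of the 2 library values divided by 2 times the square root of 2 (tolerance 1e-06 for a whole-number difference), which gave both values for 11386 genes. Date-like names of 18 genes were replaced by the symbol of their Ensembl gene.

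Values were scaled to a passage total of 1000000. Log2(scaled value + 1) was fitted with limma 3.58.1 (lmFit, eBayes with trend, R 4.3.3) with all 6 libraries in the fit (residual degrees of freedom 3, prior 3.06). The fit was also run on simulated data that had the spread of the P1 duplicates in every passage. That run did not check unequal spreads between passages. No filter beyond the authors' was used. Duplicates differed by a median of 0.10 in P0, 0.18 in P1 and 0.17 in P2 on the log2 scale, and the fit pools these spreads. Members, lists and rules were chosen with earlier results of these data known. The genes named are the 5 members, all measured further S100 genes, partners and receptors, called neighbours within 250 kb, of other EF-hand genes the 3 highest and 3 lowest called, the 3 closest patterns per member, and markers a result turns on. The neighbours not called were named after their values were seen. Some genes that these rules name are not reported here. Motif matches used the 250 bases before each RefSeq start site. Alternatives covered pseudocount, filter, scaling, variance model, passages fitted and thresholds. Python 3.11.15, numpy 2.4.6, pandas 2.3.3 and matplotlib 3.10.9 made tables and figures.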

Additional observations from a re-analysis of the deposited data

How the results depend on the processing

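The 4 members called in P1 against P0 and in P2 against P0 were called under all 10 alternative fits, which changed the pseudocount, filter, scaling, variance model or passages fitted, and *S100a13* under none. The scaling fits could move little, with median-of-ratios factors between 0.990 (P0) and 1.007 (P1). Every member passed the filter, so these fits are weak checks of the members. With adjusted p under 0.01 the count was also 4. At 4-fold it was 2 in both comparisons. The log2 fold change of *S100a4* in P1 against P0 ranged from 4.68 to 5.01 and that of *S100a10* in P2 against P0 from 1.13 to 1.16. For *S100a13* in P1 against P0 it ranged from 0.45 to 0.73, with adjusted p from 0.0361 to 0.0624. Over all genes 4-fold left 916 calls in P1 against P0 (2755 in the main analysis) and 1158 in P2 against P0 (3234). In P2 against P1 the 34 calls became 19 with a pseudocount of 5, 2 without the variance trend, 3 at 4-fold, and 0 both with adjusted p under 0.01 and when only the 2 passages compared were fitted. The cause was not tested. *S100a16* in P2 lost its call at a pseudocount of 5 (-0.85) and at an adjusted p of 0.01. At 4-fold, 3 partners and receptors in P1 and 5 in P2, 3 other EF-hand genes in each, and 0 neighbours and 0 further S100 genes were called. No paired analysis was possible because the deposited means and errors carry no replicate numbers, and for the same reason no replicate could be left out in turn. The smallest ratio between a P1 and a P0 library value of the 5 members was 1.38 (*S100a13*). The unknown depth and 2 libraries per passage limit precision.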
